A study of Mus musculus with 24 samples.

Results

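The 9 genes described here take up fatty acids or control the clearance of circulating triglyceride, and they were picked by gene symbol for that role, with earlier results of these data known. They are Cd36, Fabp1, Fabp2, Slc27a2, Slc27a4, Vldlr, Lipc, Angptl4 and Angptl8, which are 9 of the 56205 gene rows in the count table. All 9 had enough counts to be tested, beside 14109 tested genes in all. They were measured by sequencing poly(A) RNA from whole livers of C57BL/6J mice. There were 12 libraries from mice kept for 20 weeks on a diet that the labels name methionine-choline deficient (MCD), and 12 from mice kept as long on a control diet. The sources differ on the first diet, since the study's methods also call it MCD but its results name CDAHFD, a choline-deficient high-fat diet with defined amino acids, so whether methionine was absent is not settled here, and MCD is used as the labels' name. The labels call the control a chow in one field, whereas the study's methods give it as a control diet made for the MCD diet, which they describe as a high-fat food. Both sexes were used, 6 animals of each per diet, but no label gives the sex, litter or batch of a library, and the age at the start of the MCD diet is not given in the sources used here.

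The liver takes up long-chain fatty acids that circulate bound to albumin. CD36 is a membrane glycoprotein that binds fatty acids at the cell surface, and the fatty acid transport proteins of the Slc27a family couple entry to activation with coenzyme A. Fatty acid-binding proteins of the Fabp family then carry the lipid through the cytosol. Triglyceride in lipoproteins is released by lipases on the vessel wall. Hepatic lipase, encoded by Lipc, acts in the liver sinusoids, and lipoprotein lipase acts mainly in muscle and fat, where angiopoietin-like proteins restrain it. The VLDL receptor binds triglyceride-rich particles. Many of these genes are targets of peroxisome proliferator-activated receptors (PPARs), which bind DNA with a retinoid X receptor at paired half-sites. Methionine and choline are needed to make phosphatidylcholine for VLDL secretion, so a diet without them causes fat to accumulate in the liver.

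Total counts ran from 16793207 to 24915175 in control libraries and from 16388650 to 24577848 in MCD libraries. Levels are given as CPM, the counts of a gene relative to the library size, after scaling by the trimmed mean of M-values (TMM). The TMM factors did not overlap between the diets, with 0.642 to 0.973 in control and 1.07 to 1.26 in MCD libraries, so the scaling moves every fold change, and with total counts alone in place of TMM the log2 fold change of a tested gene rises by a median of 0.359. Control replicate 12 had the factor of 0.642, below the next lowest of 0.792, and members whose result moves without it are named with both values. By edgeR's quasi-likelihood test over all genes, a gene was called higher or lower when its Benjamini-Hochberg adjusted p (FDR) did not exceed 0.01 and its log2 fold change lay beyond 0.5 in either direction. Livers of both diets held the hepatocyte markers, of which Alb, Ttr and Serpina1c were called lower in MCD and the other 5 of 8 were not past the threshold. In whole liver, fewer cells of a type and less RNA per cell cannot be told apart.

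Of the 9 genes, 6 were lower in MCD livers, 0 were higher and 3 were not past the threshold. Fabp1, Fabp2, Slc27a2, Vldlr, Lipc and Angptl8 fell, while Cd36, Slc27a4 and Angptl4 did not pass. Over all tested genes 19.1% were called lower and 19.2% higher. The median log2 fold change of the 9 was -0.66, beside -0.10 for all tested genes. At an unadjusted p under 0.05 there were 7 members lower and 1 higher, and neither DESeq2 nor limma-voom called any member higher, with 0 by each. The scaling changed the counts: total counts alone gave 2 higher (Cd36 and Angptl4) and 4 lower, and upper-quartile factors 0 higher and 4 lower, with Fabp2 and Slc27a2 no longer called in either.

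**Figure D1:**
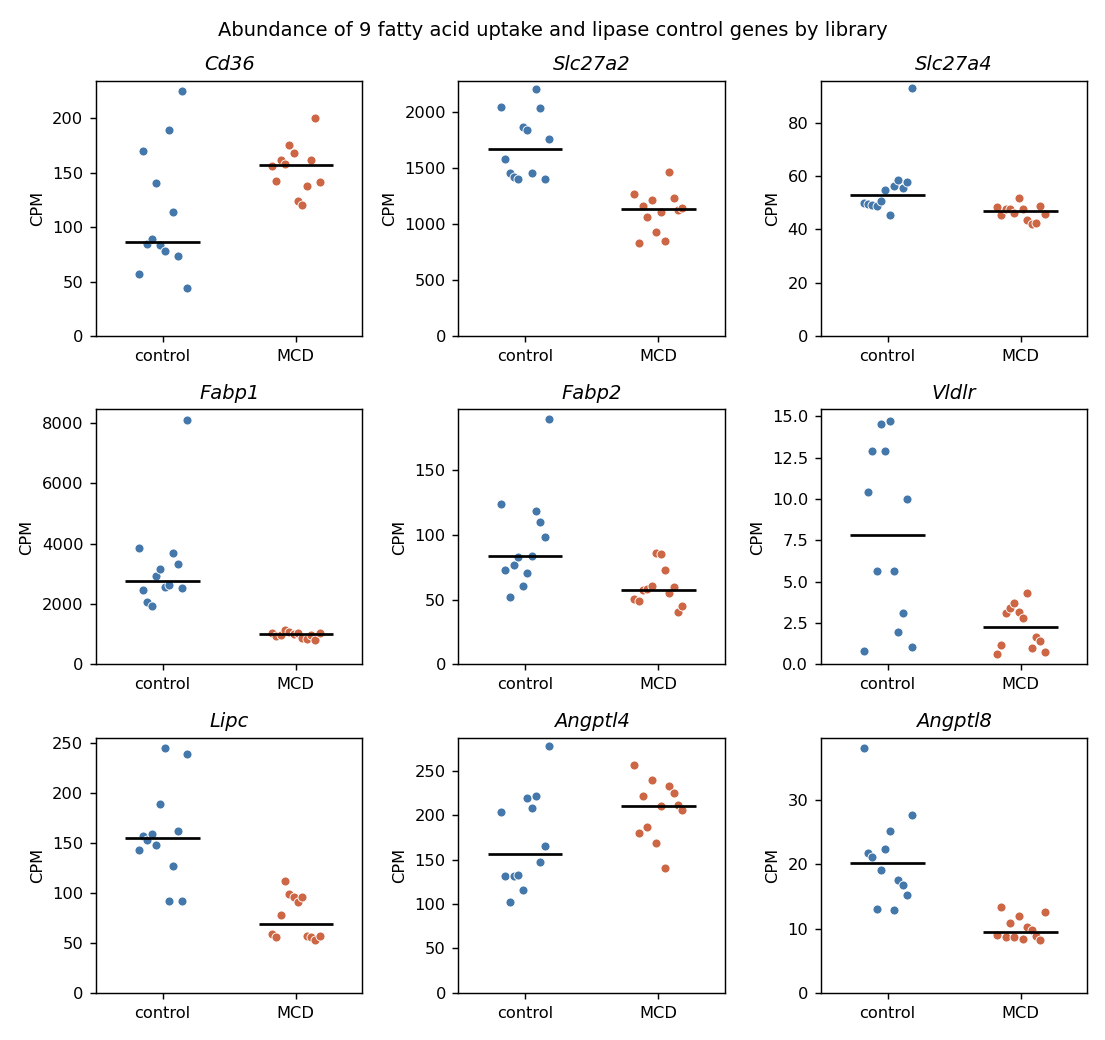
Levels of the 9 genes in every library, in CPM on a linear axis, with control and MCD livers side by side and 12 libraries in each diet. Fabp1 separates the diets completely, whereas the Cd36 and Angptl4 points overlap and the control Vldlr points run from 0.818 to 14.7 CPM.

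Per kilobase of annotated exon, the order of levels was led by the same pair of genes in both diets. In control livers the median was 5020 CPM per kb for Fabp1 and 444 for Slc27a2, and every library had Fabp1 above Slc27a2 and Slc27a2 above Fabp2. Vldlr was last at 0.779 CPM per kb, below Slc27a4 in every control library. Neighbours between those ends, from Fabp2 at 86.2 through Lipc at 72.2, Angptl4 at 44.0, Cd36 at 24.1 and Angptl8 at 23.3 to Slc27a4 at 12 CPM per kb, had overlapping ranges. Within every control library, however, Angptl8 was above Slc27a4. In MCD livers Lipc moved from the fourth to the sixth place, with a median of 31.9 CPM per kb below 59.4 for Angptl4 and 43.8 for Cd36. Fabp2 and Angptl4 had close MCD medians of 59.7 and 59.4 CPM per kb, with overlapping ranges.

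Cd36 encodes the fatty acid translocase, a scavenger receptor that hepatocytes hold at low levels and that macrophages, adipocytes and capillary endothelium also express. Its gene is on the minus strand at chr5:17781690-17888801 (GRCm38). Cd36 ran from 44.4 through a median of 86.4 to 225 CPM in control livers and from 120 through 157 to 200 CPM in MCD livers. All 12 MCD libraries lay above the control median and 8 control libraries lay below every MCD library, but 1 control library exceeded every MCD value, so the groups overlapped. The log2 fold change was 0.46 (SE 0.20, 95% interval 0.045 to 0.868, FDR = 0.0489), which did not pass the threshold. The spread differed between the diets, with a coefficient of variation of 50.4% in control and 14.6% in MCD. Leaving out control replicate 11, the highest control library for Cd36, gave 0.59 with an FDR of 0.00697, which passed, and total counts alone gave 0.77, which also passed.

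Fabp1 encodes liver fatty acid-binding protein, an abundant cytosolic carrier of long-chain fatty acids in hepatocytes and a classical PPAR alpha target. It lies on the plus strand at chr6:71199827-71205023. Fabp1 ran from 1928 through a median of 2776 to 8075 CPM in control livers and from 820 through 994 to 1149 CPM in MCD livers. The diets did not overlap, with all 12 MCD values below the lowest control, a separation in that direction found in 4.88% of tested genes. The fall was 3.32-fold, with a log2 fold change of -1.73 (SE 0.17, 95% interval -2.09 to -1.38, FDR = 2.82e-09). Control replicate 12 was the library at 8075 CPM, and without it the log2 fold change was -1.49. The coefficient of variation was 9.8% in MCD and 49.7% in control livers, or 22% in the 11 controls without replicate 12.

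Fabp2 encodes the intestinal fatty acid-binding protein, whose main site is the enterocyte, and in these livers it stood far below Fabp1. The gene lies on the plus strand at chr3:122895072-122899506, within an intron of 4933405D12Rik on the other strand. Fabp2 ran from 51.8 through a median of 83.2 to 189 CPM in control livers and from 40.2 through 57.7 to 85.9 CPM in MCD livers. The groups overlapped: 10 MCD libraries lay below the control median and 4 below every control library. The fall was 1.58-fold, with a log2 fold change of -0.66 (SE 0.17, 95% interval -1.01 to -0.31, FDR = 0.00147). Without control replicate 12, the library at 189 CPM, it was -0.49 (FDR = 0.004), inside the fold limit, and total counts alone gave -0.24. Of 6 enterocyte markers only 1, Slc5a1, had enough counts to be tested, and it was called higher in MCD. Sis and Alpi had 0 counts in every library. The summed marker level was 1.17 to 6.35 CPM in control and 6.08 to 17.9 CPM in MCD livers. Whether enterocytes contributed to the Fabp2 level was not tested.

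Slc27a2 encodes FATP2, the very long-chain acyl-CoA synthetase and fatty acid transporter of liver and kidney. The annotation places it on the plus strand at chr2:126552407-126588243, and its exons overlap Gm26697 on the other strand. The study's methods describe a stranded library kit without naming the mouse libraries, and the use of strand in counting is not given in the sources used here, so reads from the pair may not have been kept apart. Slc27a2 ran from 1403 through a median of 1666 to 2206 CPM in control livers and from 831 through 1133 to 1467 CPM in MCD livers. In 11 of 12 MCD libraries it was below every control, and 1 MCD library overlapped the lower controls. The fall was 1.53-fold, with a log2 fold change of -0.61 (SE 0.10, 95% interval -0.82 to -0.40, FDR = 1.16e-05). Upper-quartile factors gave -0.46 and total counts alone -0.25, both inside the fold limit.

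Slc27a4 encodes FATP4, a widely expressed transport protein and acyl-CoA synthetase found in the endoplasmic reticulum. It lies on the plus strand at chr2:29802634-29817522. Slc27a4 ran from 45.4 through a median of 52.8 to 93.1 CPM in control livers and from 41.9 through 46.9 to 51.7 CPM in MCD livers. All 12 MCD libraries lay below the control median, but only 4 lay below every control, and the highest control was control replicate 12. The log2 fold change of -0.27 (SE 0.09, 95% interval -0.44 to -0.09) had an FDR of 0.00971 and was inside the fold limit. Without control replicate 12 it was -0.14, and total counts alone turned its sign, at 0.12.

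Vldlr encodes the VLDL receptor, which is mainly a receptor of muscle, heart and fat and stays low in normal liver. It lies on the plus strand at chr19:27216484-27254231. Vldlr had 12 to 317 counts per control library and 13 to 103 per MCD library, the lowest level of the 9 genes. It ran from 0.818 through a median of 7.84 to 14.7 CPM in control livers and from 0.647 through 2.25 to 4.34 CPM in MCD livers. In 8 control libraries Vldlr was above every MCD library, but the lowest controls sat among the MCD values, and 2 MCD libraries lay below every control. The fall was 3.44-fold, with a log2 fold change of -1.78 (SE 0.41, 95% interval -2.63 to -0.93, FDR = 0.000542), the widest interval of the 9. The highest control library held 18.0 times the lowest, and the coefficient of variation was 68.7% in control and 57.0% in MCD livers.

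Lipc encodes hepatic lipase, which hydrolyses triglyceride and phospholipid in lipoprotein remnants and HDL and is secreted mainly by hepatocytes. It lies on the minus strand at chr9:70798128-70952226. Lipc ran from 91.6 through a median of 155 to 245 CPM in control livers and from 53.3 through 68.5 to 112 CPM in MCD livers. The overlap was narrow, with 10 control libraries above every MCD library and 8 MCD libraries below every control. The fall was 2.10-fold, with a log2 fold change of -1.07 (SE 0.17, 95% interval -1.41 to -0.73, FDR = 3.38e-06).

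Within the MCD diet, Lipc and Vldlr each lay in a pair of separate ranges. Lipc was 53.3 to 59.2 CPM in 6 MCD libraries and 77.8 to 112 CPM in the other 6. Vldlr was 0.647 to 1.67 CPM in its 6 lowest MCD libraries and 2.82 to 4.34 CPM in the others, and the 6 lowest libraries were shared by both genes, 6 of 6. The same 6 also had the 6 lowest values of a sex-linked expression score (Xist minus the mean of 4 Y-linked genes, on the log2 scale). In control livers the 6 lowest libraries for Vldlr and for Lipc shared 3, while 5 of those for Vldlr and 4 of those for Lipc were among the 6 lowest scores. With the score as a covariate the SE for Vldlr fell from 0.41 to 0.28 and that for Lipc from 0.17 to 0.13, while the log2 fold changes were -1.79 and -1.11. The score entered as a plain number, without giving any library a sex.

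Angptl4 encodes a fasting- and PPAR-induced inhibitor of lipoprotein lipase. Angptl4 is on the minus strand at chr17:33773750-33781830. Angptl4 ran from 102 through a median of 156 to 278 CPM in control livers and from 140 through 210 to 256 CPM in MCD livers. In 11 of 12 MCD libraries it was above the control median, but control values spanned the whole MCD range. The log2 fold change was 0.27 (SE 0.14, 95% interval -0.02 to 0.56, FDR = 0.0973), which did not pass the threshold. It was 0.39 (FDR = 0.00921) without control replicate 12, inside the fold limit, and 0.66 with total counts alone, which passed.

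Angptl8 encodes a feeding-induced hepatic protein that restrains lipoprotein lipase. Its locus is on the plus strand at chr9:21835510-21837347, within an intron of Dock6 on the other strand. Angptl8 ran from 12.8 through a median of 20.1 to 38.1 CPM in control livers and from 8.24 through 9.40 to 13.3 CPM in MCD livers. In 11 of 12 MCD libraries it was below every control. The fall was 2.07-fold, with a log2 fold change of -1.05 (SE 0.15, 95% interval -1.35 to -0.75, FDR = 7.33e-07).

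**Figure D2:**
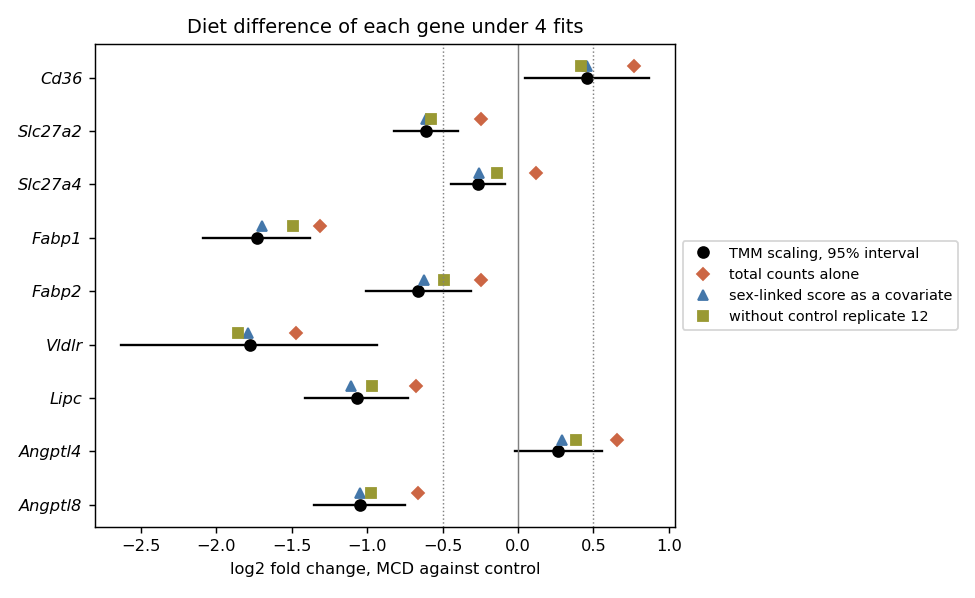
Log2 fold change (MCD against control) of each of the 9 genes, with black points for TMM scaling and bars for the 95% interval, diamonds for total counts alone, triangles for the fit with the sex-linked score and squares for the fit without control replicate 12. Dotted lines mark the fold limit of 0.5, and Fabp1, Vldlr, Lipc and Angptl8 lie beyond it in each of these fits. Fabp2 and Slc27a2 come inside it with total counts alone and Fabp2 also without control replicate 12. Cd36 and Angptl4 move beyond it, on the higher side, with total counts alone.

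Promoter sequence from RefSeq (GRCm38.p6) was at hand for 8 of the 9 genes, in 10 windows of 250 bases before to 50 bases after a start. Angptl4 had no window in the set used here, so it was not searched. The windows were searched on both strands for the motif that PPAR and related receptors bind (DR1, AGGTCA, 1 base of any kind, AGGTCA) and for the HNF1 motif (GTTAAT, 1 base of any kind, ATTAAC), allowing 2 mismatches in 12 compared bases. A DR1 match was held by 3.86% of 32851 promoter windows of the same length, and an HNF1 match by 1.36%. These matches describe letters only, and the motifs were chosen after results for these genes were known. Fabp1, Cd36 and a second Lipc start had a DR1 match, with 1, 2 and 2 mismatches, and Angptl8 had an HNF1 match with 2, read on either strand. They are shown because the genes they precede differ in how they moved: Fabp1, Lipc and Angptl8 fell, and Cd36 did not pass the threshold. Each sequence starts 150 bases before the RefSeq start and is written 5′ to 3′ on the gene's strand. It ends just before the start, or for Fabp1 just before the first annotated exon base, and capitals mark the match.
Fabp1, chr6:71199729-71199826, plus strand: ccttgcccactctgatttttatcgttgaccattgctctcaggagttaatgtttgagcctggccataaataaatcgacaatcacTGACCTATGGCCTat
Cd36, chr5:17835897-17836046, minus strand: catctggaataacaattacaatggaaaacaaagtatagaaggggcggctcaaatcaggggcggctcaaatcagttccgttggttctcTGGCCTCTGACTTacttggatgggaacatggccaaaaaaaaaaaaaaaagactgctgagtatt
Lipc, chr9:70934809-70934958, minus strand: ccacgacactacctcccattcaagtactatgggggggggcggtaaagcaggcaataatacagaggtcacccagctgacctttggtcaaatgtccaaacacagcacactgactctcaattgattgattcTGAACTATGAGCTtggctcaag
Angptl8, chr9:21835360-21835509, plus strand: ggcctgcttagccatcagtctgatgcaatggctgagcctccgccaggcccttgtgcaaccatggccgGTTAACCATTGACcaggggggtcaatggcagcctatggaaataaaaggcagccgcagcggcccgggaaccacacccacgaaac

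A ratio of 2 genes within a library does not depend on library scaling, so the 3 families with a pair of members were compared that way (two-sided permutation tests with 100000 resamples, adjusted over the 3, called at an adjusted p of 0.05 or less). Fabp2 rose relative to Fabp1 although both fell. Its mean log2 ratio was -5.08 ± 0.30 (SD, n = 12) in control and -4.07 ± 0.33 (SD, n = 12) in MCD livers, a difference of 1.02 or 2.03-fold (adjusted p = 1.5e-05, from the smallest p the resamples can give). All 12 MCD libraries had a higher ratio than every control, and Fabp1 alone was also fully separated. Among single genes 9.50% were fully separated upward and 4.88% downward, but the share among ratios of 2 genes was not determined.

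Slc27a4 also rose relative to Slc27a2, from -4.94 ± 0.33 to -4.57 ± 0.28 (SD, n = 12 each), a difference of 0.37 or 1.29-fold (adjusted p = 0.00824). The groups overlapped, with 2 MCD libraries above every control and 11 above the control median. Angptl8 fell relative to Angptl4, from -3.04 ± 0.55 to -4.35 ± 0.42 (SD, n = 12 each), a difference of -1.31, which is 0.403 of the control ratio (adjusted p = 1.5e-05). In 9 of 12 MCD libraries this ratio was below every control.

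**Figure D3:**
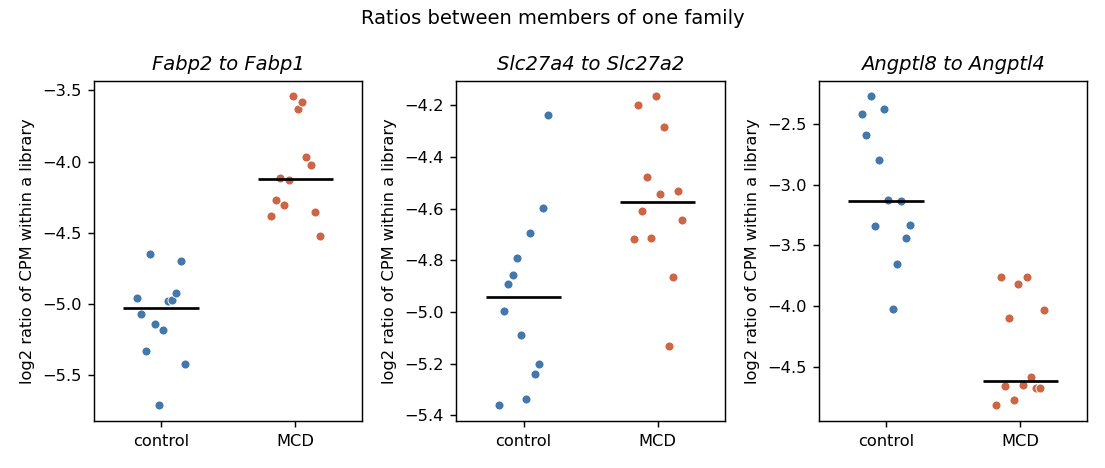
Log2 ratio of a pair of family members within each library, for Fabp2 to Fabp1, Slc27a4 to Slc27a2 and Angptl8 to Angptl4, with 12 control and 12 MCD libraries and a line at the median of each diet. The first ratio has no overlap between the diets, and 9 of 12 MCD libraries lie below every control in the third.

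Whether the 9 genes varied together among animals on the same diet was tested over 36 pairs in each diet, 72 relations in all, on log2 CPM with permutation tests. By Pearson's r, 3 pairs in control and 2 in MCD livers had an adjusted p of 0.05 or less. In control livers Fabp2 and Vldlr ran opposite (r = -0.854, adjusted p = 0.00972, rho = -0.860, adjusted p = 0.0245, permutation tests), with r = -0.840 without the 2 libraries farthest from the Fabp2 median but -0.669 after removing the sex-linked score from both genes (adjusted p = 0.141, permutation test), which did not pass.

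Fabp1 and Fabp2 ran together in controls (r = 0.839, adjusted p = 0.0218), although the rank correlation did not pass (rho = 0.734, adjusted p = 0.127), and r was 0.757 without the 2 libraries farthest out and 0.810 after removing the score (adjusted p = 0.0677), which did not pass. Fabp2 and Angptl4 had r = 0.774 (adjusted p = 0.0423) in controls, but this fell to 0.521 (p = 0.123, permutation test) without the 2 libraries farthest out, so it rests on them, and to 0.563 (adjusted p = 0.181) after removing the score. With total counts alone, 0 control pairs passed.

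In MCD livers Slc27a2 and Angptl4 ran together (r = 0.876, adjusted p = 0.00864, rho = 0.923, adjusted p = 0.00576). Their r was 0.849 without the 2 libraries farthest out and 0.859 after removing the score, while total counts alone gave 0.787 (adjusted p = 0.0574). Vldlr and Lipc were the other MCD pair, but their values fell into the pair of separate ranges described for these genes, so no pooled correlation is given and how they vary within a range was not tested. After removing the sex-linked score their r was -0.0851 (adjusted p = 0.914, permutation test). This pair was also the 1 MCD pair that passed with total counts alone.

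**Figure D4:**
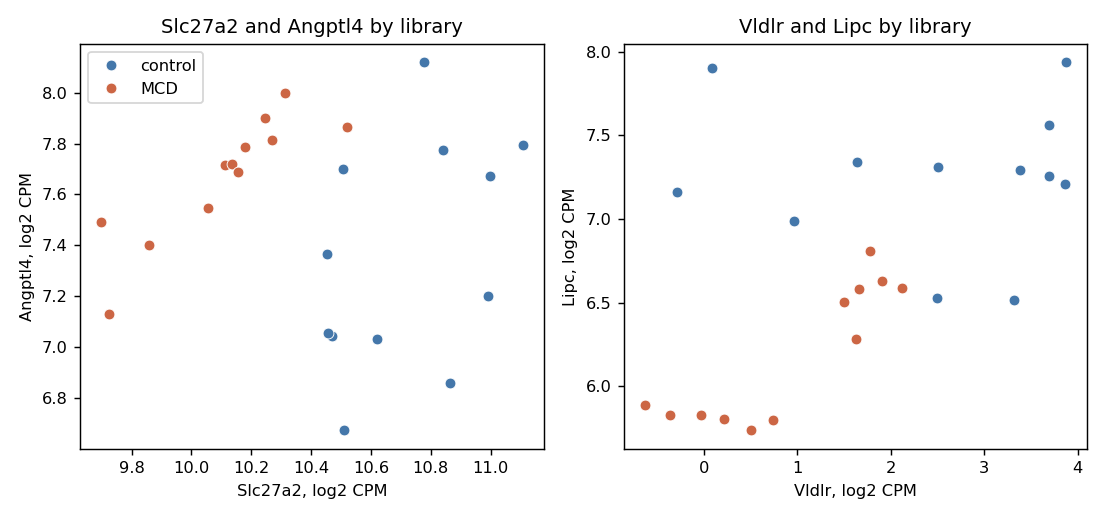
Log2 CPM of pairs of the 9 genes within each diet, 1 point per library, 12 per diet. Slc27a2 and Angptl4 rise together among the MCD livers, and the MCD points of Vldlr and Lipc form a pair of separate groups of 6.

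The genes whose library-to-library deviations from their diet mean most resembled each of the 9 were read from 10112 genes over the 24 libraries, as a description with no test. The sex-linked score, along which the MCD values of Vldlr and Lipc separated, was not removed from these deviations. Nearest to Fabp1 were Glo1 (r = 0.911), Acbd4 (0.909) and Ltbr (0.907), the last 2 at 0.733 and 0.718 without control replicate 12. Vldlr lay nearest to Abcb1a (0.957), Cyp2a22 (0.928) and Cyp2c39 (0.910), and Lipc to Afm (0.919), Cyp2c37 (0.889) and Notum (0.883). Cd36 lay nearest to Nabp1 (0.890), Robo1 (0.871) and Slc44a3 (0.845). Fabp2 lay nearest to Gstk1 (0.867), Mthfsl (0.850) and Fam213b (0.844). Slc27a2 lay nearest to Cluh (0.860), Nucks1 (0.843) and Tomm70a (0.837).

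The likeness of Slc27a4 to Slc25a10, Prelid1 and Spg7 (r = 0.918, 0.886 and 0.884) dropped to 0.682, 0.426 and 0.543 without control replicate 12. Angptl4 lay nearest to Mrap (0.879), Mlycd (0.861) and Cycs (0.847), and Angptl8 to 0610040J01Rik (0.785), Cnot8 (0.780) and Cfap20 (0.741).

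Beside the 9 genes, other genes of fatty acid uptake and activation were mixed in direction. Of 20 such genes 13 were tested, of which 5 were higher, 6 lower and 2 not past the threshold, with a median log2 fold change of 0.19. With total counts alone the split was 6 higher and 3 lower. Acsl5, an acyl-CoA synthetase, fell by 1.41 on the log2 scale (SE 0.11, FDR = 1.96e-11). Slc27a5, the bile acid-CoA ligase FATP5, fell from 914 ± 199 to 425 ± 40.2 CPM (SD, n = 12 each; log2 -1.11, FDR = 1.06e-09). Slc27a1, the FATP1 of muscle and fat, rose by 1.3 (FDR = 4.19e-09), Fabp4, an adipocyte and macrophage carrier, by 1.36 (FDR = 6.37e-05), and Fabp7, best known from brain, by 1.17 (FDR = 1.1e-06) to 6.33 ± 1.58 CPM.

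Among 20 other genes of lipase control and lipoprotein receptors, 18 were tested, of which 2 were higher, 8 lower and 8 not past, with a median log2 fold change of -0.32. Total counts alone gave 4 higher and 5 lower. Lpl, encoding lipoprotein lipase itself, rose 9.19-fold from 24 ± 23.6 to 221 ± 37.6 CPM (SD, n = 12 each; log2 3.20, SE 0.32, FDR = 2.75e-09). Gpihbp1, the endothelial protein that holds the enzyme at the capillary wall, had a log2 fold change of -0.28 (FDR = 0.0968), which did not pass, and 0.10 with total counts alone. Angptl6 fell by 2.35 on the log2 scale (FDR = 6.38e-13).

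PPAR factors and their other target genes were tested in 24 of 25 cases, of which 3 were higher, 9 lower and 12 not past, with a median log2 fold change of -0.44. Total counts alone gave 4 higher and 4 lower. Ppara, the main PPAR of hepatocytes, fell from 118 ± 38.9 to 34.7 ± 7.46 CPM (SD, n = 12 each; log2 -1.76, FDR = 2.51e-08). Pparg, the adipogenic PPAR, had a log2 fold change of -0.20 (FDR = 0.224), which did not pass, and 0.16 with total counts alone. Mogat1, a monoacylglycerol acyltransferase, fell by 3.15 (FDR = 1.83e-06) to 0.414 ± 0.20 CPM, whereas Ucp2, a mitochondrial carrier, rose by 1.87 (FDR = 1.57e-10) and Pdk4, a kinase that shuts pyruvate dehydrogenase, by 1.31 (FDR = 0.000118). Of the genes named from these 3 lists, Acsl5, Angptl6, Mogat1 and Ucp2 have exons that overlap a gene on the opposite strand.

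**Figure D5:**
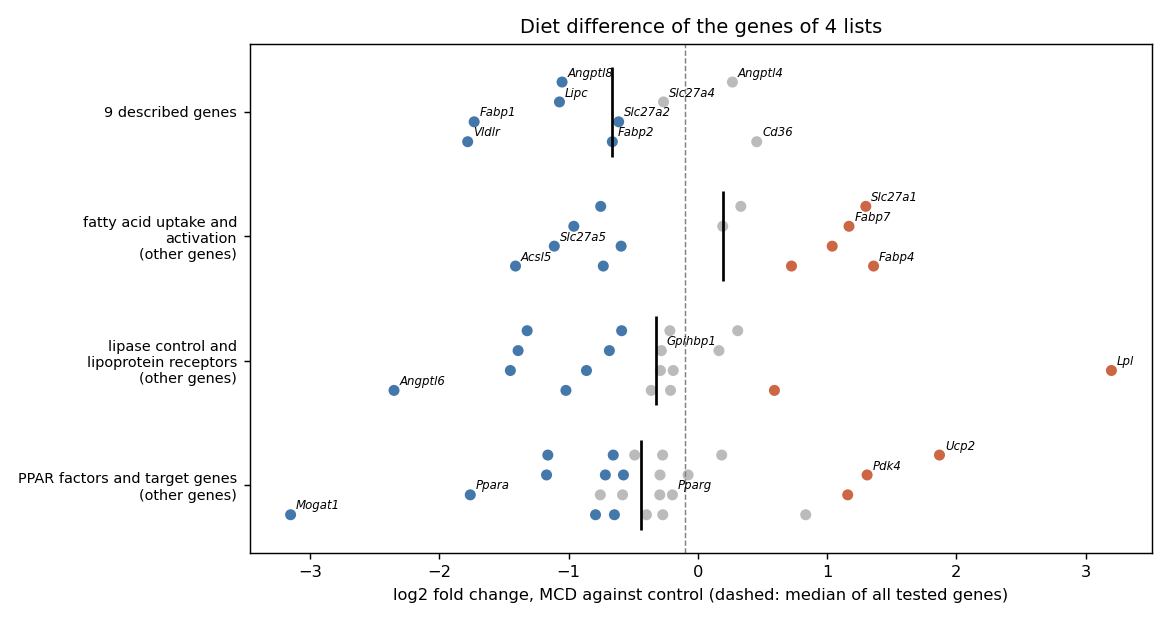
Log2 fold change (MCD against control) of each tested gene in the 9 members and the 3 lists of other genes, with blue points for genes called lower, red for higher and grey for those not past the threshold. Black bars are list medians and the dashed line is the median of all tested genes; Lpl stands highest at 3.20.

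Markers of other liver cells moved with the diet. The 7 markers of monocyte-derived macrophages, cells that express Cd36, Lpl and Fabp4, were all called higher, and their summed level was 46.6 to 205 CPM in control and 1082 to 2143 CPM in MCD livers. Spp1 stood in both this list and the cholangiocyte list, and without it the macrophage sum was 20.2 to 78.5 CPM in control and 623 to 1321 CPM in MCD livers. Of 7 mesenchymal markers 6 were higher and 1 lower (143 to 369 and 505 to 861 CPM), all 6 cholangiocyte markers were higher (30.2 to 147 and 456 to 916 CPM, or 3.84 to 15.1 and 44.8 to 107 CPM without Spp1), and 3 of 6 lymphocyte markers were higher (2.64 to 7.84 and 7.61 to 17.5 CPM). Of the markers of Kupffer cells 5 of 6 were lower (149 to 445 and 81.3 to 297 CPM), as were 5 of 7 endothelial markers (198 to 293 and 118 to 183 CPM). Hepatocyte markers summed to 72565 to 178047 CPM in control and 54862 to 81223 CPM in MCD livers. Of 5 adipocyte markers 0 had enough counts to be tested, with sums of 0 to 10.8 and 0 to 122 CPM. The 122 CPM came from MCD replicate 4, and the MCD median was 0.137 CPM. In that library Fabp4 was also highest, at 60.8 CPM against 16.8 to 33.7 CPM in the other MCD libraries, and without it the log2 fold change of Fabp4 was 1.22 (FDR = 0.000103). The part of these cell types in the changes of the 9 genes was not tested.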

How the data were processed

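Liver poly(A) libraries came from 12 control and 12 MCD mice. The authors deposited raw counts per Ensembl gene, without normalization, in 1 column per library; all 24 columns matched a sample title and 0 were unused. The submitters' processing notes name bcl2fastq, STAR 2.7.3a and the mm10 build; the study's methods describe a stranded TruSeq mRNA kit and, for a human reference, the exon quantification pipeline and PISCES, but do not say that these were used for the mouse libraries, and the use of strand in counting is not given in the sources used here. No label ties libraries to litters or batches, so p-values measure only the spread between these libraries.

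Of 56205 gene rows, 28652 were 0 in every library and 51745 were named by GENCODE M21 (GRCm38, the same build). Genes were kept by filterByExpr (14109) and tested with edgeR 4.0.16 in R 4.3.3 (glmQLFit and glmQLFTest, TMM factors, no covariate). The study's own limits for human liver set both thresholds. SEs were obtained from each log2 fold change and its F statistic (ratio of the fold change to the root of F), and intervals are at 95%. The biological coefficient of variation was 26.8%, and log2 CPM used a prior count of 2.

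Permutation tests used numpy 2.4.6 and scipy 1.17.1 in Python 3.11.15, and figures matplotlib 3.10.9. The fits were tested on simulated data. Alternatives were relative log expression and upper-quartile factors, total counts alone, DESeq2 1.42.0, limma-voom (limma 3.58.1), testing every gene or those with 10 or more counts throughout, a replicate block, the sex-linked score, a log2 limit of 1, no fold limit at an FDR of 0.05, a prior count of 0.5, and dropping single libraries. The likeness and control spread without control replicate 12, the ranges of Vldlr and Lipc, Fabp4 without MCD replicate 4 and the marker sums without Spp1 were chosen after seeing the data.

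The members, lists, motifs and tests were chosen with earlier results of these data known. All 9 members are named. From each list come the 4 called genes with the largest absolute fold change and a mean of at least 1 CPM, and always Lpl, Gpihbp1, Slc27a5, Ppara and Pparg; some genes this rule names are not reported here. For each member come also the 3 genes of highest likeness among those with a mean of at least 5 CPM.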

Additional observations from a re-analysis of the deposited data

How the results depend on the processing

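Over 99 values of the 9 log2 fold changes under the alternative settings other than dropping a library, 86 kept their direction and side of the threshold, 7 lost the call, 5 gained it and 1 changed sign; the cause was not tested. With total counts alone, 2 members were called higher, Cd36 (0.771) and Angptl4 (0.655), Fabp2 (-0.243) and Slc27a2 (-0.246) lost their calls, Slc27a4 turned to 0.118, and 0 control and 1 MCD pairs (Vldlr and Lipc) were correlated. Upper-quartile factors gave -0.50 for Fabp2 and -0.457 for Slc27a2. A log2 limit of 1 left out Fabp2 (-0.661) and Slc27a2 (-0.612), and no fold limit at an FDR of 0.05 added Cd36 (0.456) as 1 member higher and Slc27a4 (-0.265). After removing the sex-linked score, 1 control and 1 MCD pair were correlated. The MCD pair was Slc27a2 and Angptl4, and the control pair was Cd36 and Lipc (r = -0.855, adjusted p = 0.0137, permutation test; -0.756 and 0.054 before), and none of the 3 control pairs called before passed. Dropping single libraries gave 0 to 1 members higher, 0.407 to 0.591 for Cd36 and -0.712 to -0.490 for Fabp2. At an adjusted p of 0.05 or less the 3 family ratios kept their calls in every setting run, with ranges of 0.962 to 1.06 for Fabp2 to Fabp1, 0.331 to 0.433 for Slc27a4 to Slc27a2 and -1.40 to -1.24 for Angptl8 to Angptl4 when a library was dropped. For Slc27a4 to Slc27a2 the adjusted p of the permutation test then ran from 0.00115 to 0.016.

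Libraries of the 2 diets share replicate numbers, but same-numbered libraries deviated together by over 0.1 in 8 of 12 pairs (-0.28 to 0.349, median 0.233, against a median of -0.0592 for differently numbered pairs), and 2 control libraries correlated best with their own number. Not every pair exceeded 0.1 and no label ties the numbers to animals or batches, so the numbers are not taken to pair libraries. With the replicate block, 1 member was called higher, Cd36 (0.606, FDR = 0.00938), and Fabp2 (-0.608, FDR = 0.0118) lost its call. Depth limits Vldlr most, with 12 counts in its lowest library.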
